A study of Mus musculus with 6 samples.

Results

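The genes described here are those of the mouse major histocompatibility complex (MHC), called H2 in the mouse, together with the genes that make, carry and load the peptides its proteins present. The set was defined by name: every gene whose symbol on the array annotation begins with H2-, and B2m, Tap1, Tap2, Tapbp, Psmb8, Psmb9, Psmb10, Nlrc5, Cd74 and Ciita. It held 33 genes, 23 of them H2- genes, of the 18193 genes that had a probe set with 1 gene symbol. These 33 genes were read by 64 of 45037 probe sets (a probe set is a group of short probes summarised as 1 value), and a further 15 probe sets matched several symbols and are described apart. In the RefSeq annotation 28 of the 33 genes lie on chromosome 17, and 4 (H2-Bl, H2-D4, H2-Ea and H2-Q5) are transcribed pseudogenes.

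Whole testis RNA of mice aged 12 weeks was hybridised to 6 Affymetrix arrays, 3 for the genotype labelled jsd and 3 for SCARKO-jsd. Both groups carried the jsd (juvenile spermatogonial depletion) mutation of Utp14b, in which spermatogonia persist in adult tubules but hardly differentiate. The SCARKO-jsd group had, in addition, a conditional knockout in the Sertoli cells (somatic nurse cells of the tubules), and the labels used here name neither the driver of the knockout nor the strain. The comparison asks how MHC and antigen processing transcripts differ with the knockout when germ cells are scarce, and every difference below is SCARKO-jsd minus jsd on the log2 scale, where a unit is a doubling.

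Class I molecules are a heavy chain paired with beta-2 microglobulin, the product of B2m, and show peptides from inside the cell to CD8 T cells. Their peptides are cut by the immunoproteasome, pumped into the endoplasmic reticulum by the Tap1 and Tap2 transporter and loaded with the help of tapasin, the product of Tapbp. Class II molecules, built from alpha and beta chains with the invariant chain Cd74, show peptides taken up from outside to CD4 T cells and are mostly made by macrophages, dendritic cells and B cells. In the testis, an immune privileged organ, class II is carried largely by interstitial macrophages, and germ cells make little classical class I.

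Array SCARKO-jsd 2 stood apart from the others. Its correlation with the other arrays over all probe sets was 0.965 to 0.975, against 0.991 to 0.996 among the other 5, and its median was 6.26 against 6.40 to 6.41. The signal of the beta-actin control probe set at the 3' end exceeded that at the 5' end by 1.66 log2 units on this array and by 0.70 to 0.98 on the others, a measure that grows when RNA is shorter. Many of the results below are therefore given with and without it. Rhox5, an androgen-dependent Sertoli cell homeobox gene, was 10.26, 10.43 and 9.74 in jsd 1, 2 and 3, against 5.44, 6.11 and 5.84 in SCARKO-jsd 1, 2 and 3, so the arrays separated by genotype as labelled. With 3 arrays per group the standard error (SE) of a difference had a median of 0.13 over the 64 member probe sets, and the number of arrays limits the precision.

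H2-Q10 was the only member that passed the test, and it was higher in SCARKO-jsd testes. H2-Q10 encodes a class I heavy chain without the usual membrane anchor, which is secreted and is known mainly as a product of the liver. The classical class I genes H2-K1 and H2-D1, the shared light chain B2m, the immunoproteasome and transporter genes and the class II genes had small differences that did not pass. Of the 64 member probe sets, 1 was called by limma at an adjusted p under 0.05, against 0.280% of all probe sets. With 1 probe set per gene and the dimmest 40% of genes left out (mean log2 expression up to 6.64), 19 of the 33 member genes were tested and 1 was called, against 3.57% of all 10916 genes tested. The median difference over the 64 probe sets was -0.0225, beside 0.013 over all probe sets. The remaining probe sets differed by between -0.73 and 0.35.

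**Figure D1:**
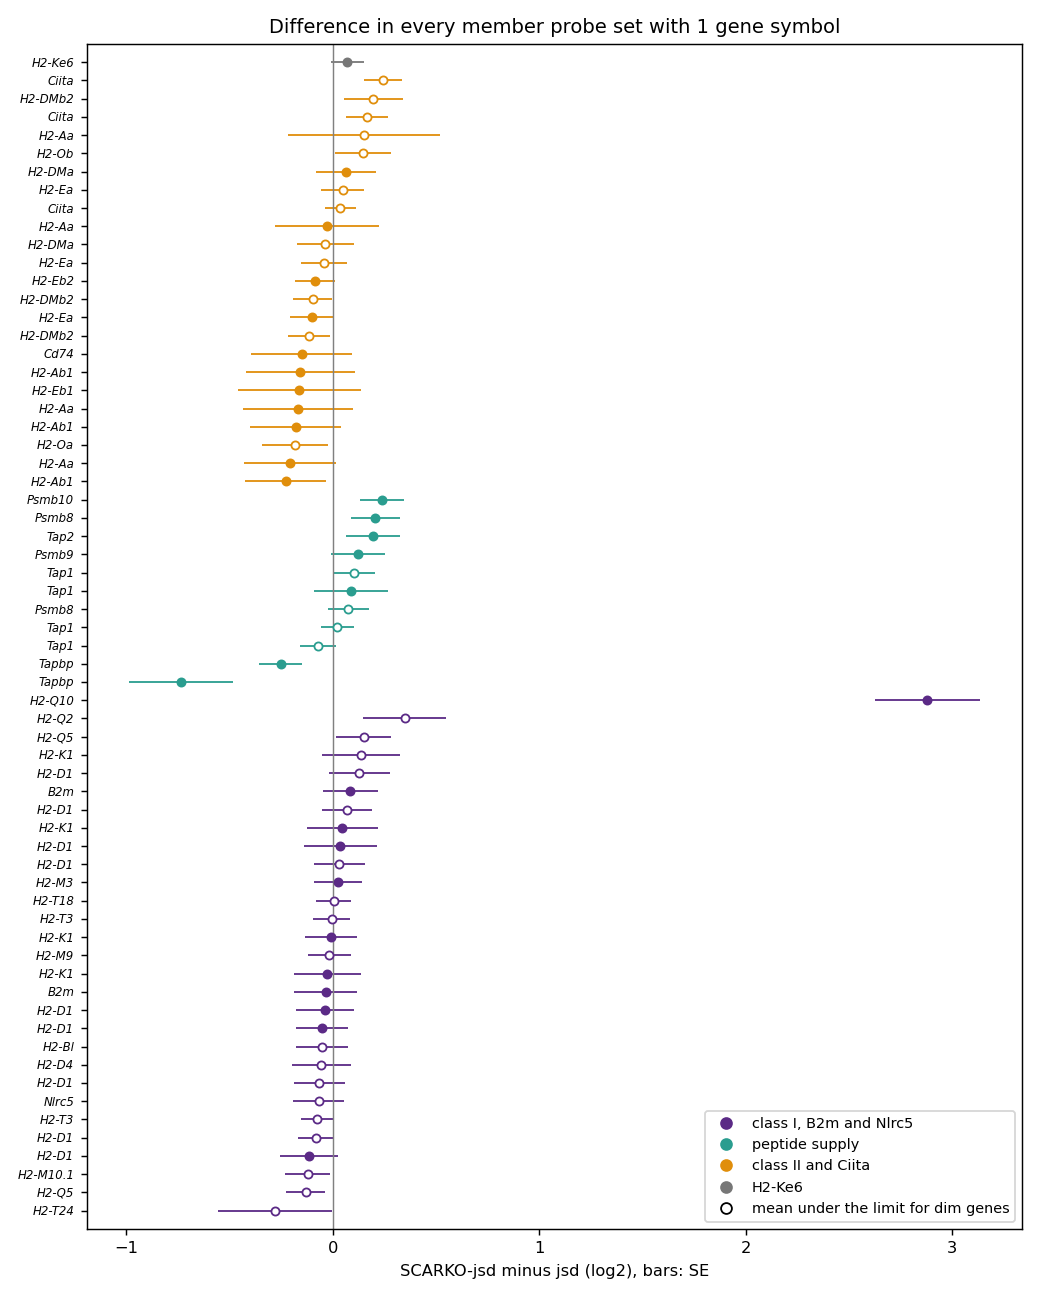
Difference (SCARKO-jsd minus jsd, log2, bars SE) for each of the 64 member probe sets with 1 gene symbol, 1 row per probe set labelled by its gene. Filled points lie above the limit for dim genes and open points under it. H2-Q10 stands at 2.88 and the lowest point is a Tapbp probe set at -0.73.

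H2-Q10 (Entrez gene ID 15007) had only 1 probe set of its own, so no second one could be set beside it. Whether its probes also read related class I transcripts was not tested. Log2 expression of H2-Q10 was 5.71, 5.34 and 5.13 in jsd 1, 2 and 3, against 8.42, 8.63 and 7.76 in SCARKO-jsd 1, 2 and 3. The highest jsd array lay more than 2 units under the lowest SCARKO-jsd array, and the groups did not overlap. The difference was 2.88 ± 0.25 (SE, n = 3 per group), or 7.36-fold, with a 95% interval of 2.27 to 3.49. The limma adjusted p was 0.00157 in the fit over genes and 0.0206 in the fit over every probe set. The 3 jsd values were below the dim limit. H2-Q10 therefore entered the fit over genes only through the SCARKO-jsd arrays, and the size of the fold is uncertain. Without SCARKO-jsd 2 the difference was 2.70, with limma adjusted p-values of 0.000482 over genes and 0.00463 over probe sets. In the fit over probe sets, leaving out jsd 1, jsd 2, jsd 3 or SCARKO-jsd 1 ended the call, with limma adjusted p-values of 0.115, 0.163, 0.0806 and 0.0852, while over genes it was called with each array left out (adjusted p up to 0.0115).

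The same arrays give H2-Q10 relative to class I genes that were not called, as a description of the difference above and not as further evidence for it. Within each array, H2-Q10 minus H2-D1 ran from -6.94 to -6.60 in jsd and from -4.37 to -3.56 in SCARKO-jsd testes, a shift of 2.93. Against H2-K1 the shift was 2.91 and against B2m it was also 2.91, each with an exact permutation p of 0.1 (two-sided), the smallest that 3 against 3 arrays can give. These are shifts between the groups, and levels of different probe sets are not comparable.

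**Figure D2:**
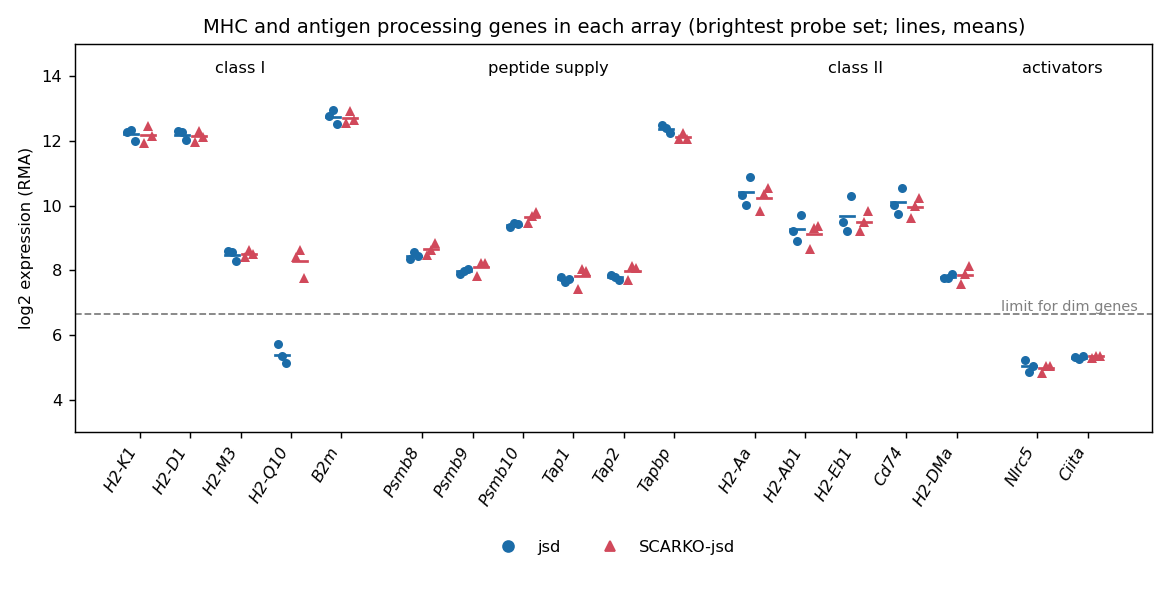
Log2 expression (RMA) of 18 member genes in each of the 6 arrays, grouped by role, with lines at the group means and a dashed line at the limit for dim genes (6.64). H2-Q10 is the gene whose groups are clearly apart, at 5.13 to 5.71 in jsd, against 7.76 to 8.63 in SCARKO-jsd testes. Heights of different genes are not comparable, since each probe set has its own sensitivity.

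The upstream sequence of H2-Q10 is shown beside that of its classical relative H2-D1 and of B2m, because H2-Q10 was the only member called while its relative and the shared light chain were not. Each line runs from 180 bases before the annotated transcript start to the base before it, on the plus strand of GRCm38.p6 as RefSeq gives it, at chr17:35469909-35470088, chr17:35262914-35263093 and chr2:122147507-122147686. Capitals mark matches, on either strand, to 5 short motifs: the kappa B site GGGATTCCC, the interferon response core GAANNGAAA, the cAMP response core TGACG, the inverted CCAAT box ATTGG and the TATA box TATAAA.
H2-Q10: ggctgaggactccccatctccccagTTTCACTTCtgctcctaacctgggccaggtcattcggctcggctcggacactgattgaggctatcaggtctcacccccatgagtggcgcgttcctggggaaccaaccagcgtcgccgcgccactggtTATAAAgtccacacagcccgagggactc
H2-D1: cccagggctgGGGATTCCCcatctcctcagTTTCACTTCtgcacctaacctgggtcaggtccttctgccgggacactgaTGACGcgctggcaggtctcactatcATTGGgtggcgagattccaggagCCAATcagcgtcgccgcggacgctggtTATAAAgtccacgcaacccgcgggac
B2m: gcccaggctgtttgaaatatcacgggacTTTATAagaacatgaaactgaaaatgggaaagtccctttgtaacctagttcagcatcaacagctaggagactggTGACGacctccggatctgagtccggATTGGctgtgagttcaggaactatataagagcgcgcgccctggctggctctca
The 250 bases before the start of H2-Q10 were aligned with the whole window of each relative, from 250 before to 50 after its start. They were 82.3% identical to H2-D1 and 81.3% to H2-K1, over 254 and 241 aligned columns. The aligned stretch can therefore reach past the annotated start of the relative. Motifs were searched in windows of 300 bases, from 250 before to 50 after the start. H2-D1 had all 5 motifs, with kappa B at -170, the interferon core at -150, the cAMP core at -101 and the TATA box at -26. Its inverted CCAAT box matched as ATTGG at -76 and on the other strand, so as CCAAT, at -53. H2-Q10 matched the interferon core at -155 and the TATA box at -28 and had no match to the other 3. Among 22 member genes with a window, kappa B was found in 2 (H2-K1 and H2-D1), against 0.353% of 32851 windows, and the interferon core in 4 (H2-K1, H2-D1, H2-Q10 and H2-M3), against 7.52%. The cAMP core was found in 8 of the 22 and the inverted CCAAT box in 17, against 20.8% and 37.4% of all windows. The letters TATAAA were found in 8, against 13.6%, on either strand and anywhere in the window. A match need therefore not be a TATA box, and in B2m it lay at -152 on the other strand. These matches describe the letters of the reference and were not measured in the testis. No match says only that these exact letters were not in the window. Other spellings of these sites were not searched. A gene without a match, such as B2m for kappa B and the interferon core, may still carry such a site.

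The genes beside H2-Q10 on chromosome 17 were not called with it. Only neighbours with a probe set of their own were taken, so Q region genes read by probe sets with several symbols were left out. Of the 5 measured neighbours on each side, the largest differences were those of H2-Q2 (0.35), Atp6v1g2 (0.30) and Pou5f1 (0.23). The groups did not overlap for these genes, nor for Ddx39b, which was lower (-0.19), beside 16.9% of all probe sets without overlap. By limma 0 of the 10 was called, beside 0.280% of all probe sets, a share at which no call among 10 says little. H2-Q5, H2-Q2, Pou5f1, Psors1c2 and Cdsn were dim and were not tested over genes. Between Tapbp and H2-M2, taken here as the ends of the MHC segment, 131 genes had a probe set of their own and 91 were tested. Besides H2-Q10, the genes called there in the fit over genes were Trim26 and Rgl2, both named after their values were seen. Trim26 fell by 0.48 on the log2 scale (limma adjusted p = 0.0482) and Rgl2 by 0.50 (limma adjusted p = 0.0355). In the fit over every probe set their limma adjusted p-values were 0.157 and 0.121. The called genes were 3.30% of the tested genes of the segment, beside 3.57% over all genes.

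Among the classical class I genes, the brightest H2-K1 probe set read 12.29, 12.33 and 12.00 in jsd 1, 2 and 3, against 11.93, 12.45 and 12.16 in SCARKO-jsd 1, 2 and 3. The H2-D1 values were 12.30, 12.28 and 12.02 in jsd, against 11.98, 12.32 and 12.13 in SCARKO-jsd testes. In both genes the groups overlapped fully, with jsd 3 and SCARKO-jsd 1 the lowest of the 6 arrays. The differences were -0.027 ± 0.16 (SE, n = 3 per group) for H2-K1 and -0.053 ± 0.13 for H2-D1, with limma adjusted p-values over genes of 0.945 and 0.857. Without SCARKO-jsd 2 they were -0.16 and -0.14, with limma adjusted p-values of 0.522 and 0.539. H2-K1 and H2-D1 together had 13 probe sets, 7 of them above the limit for dim genes, and their differences ran from -0.12 to 0.14. The 95% intervals of those 13 probe sets lay between -0.45 and 0.59, and 0 of them was called by limma or had an unadjusted p under 0.05. Many of these probe sets carry the suffix _x_at, which marks probes shared with related transcripts, so H2-K1, H2-D1 and other class I transcripts cannot be fully told apart.

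B2m, the light chain gene shared by class I heavy chains, read 12.78, 12.95 and 12.51 in jsd 1, 2 and 3, against 12.56, 12.94 and 12.64 in SCARKO-jsd 1, 2 and 3. All 3 SCARKO-jsd values lay inside the range of the jsd values. The difference was -0.035 ± 0.15 (SE, n = 3 per group), with a 95% interval of -0.40 to 0.33, and its second probe set gave 0.084. Without SCARKO-jsd 2 these were -0.15 and -0.028. The sign of B2m turned with the choice of probe set and with median centring, so no direction is given for it.

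The other class I genes were mostly dim. H2-M3, which presents N-formylated peptides of bacteria and mitochondria, read 8.60, 8.57 and 8.29 in jsd, against 8.40, 8.62 and 8.50 in SCARKO-jsd testes, a difference of 0.023 (-0.035 without SCARKO-jsd 2) with overlapping groups. H2-Q2, a Q region gene, had a brightest probe set whose groups did not overlap, at 3.40, 3.50 and 3.35 in jsd, against 3.52, 4.24 and 3.54 in SCARKO-jsd testes. It lay under the limit for dim genes on every array, its difference of 0.35 fell to 0.11 without SCARKO-jsd 2, and its limma adjusted p over probe sets was 0.635. Apart from H2-K1, H2-D1, H2-Q10 and H2-M3, the 9 class I H2 genes with a probe set of their own (the pseudogenes included) were dim and were not tested over genes. H2-T24 had the lowest difference among them, -0.28 ± 0.28 (SE, n = 3 per group), and 0.0155 without SCARKO-jsd 2.

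Further class I genes were read only by probe sets with several symbols, which name no single gene. The brighter of the H2-T23 and H2-T-ps probe sets read 10.01, 10.25 and 10.28 in jsd, against 10.41, 10.48 and 10.57 in SCARKO-jsd testes. H2-T23 encodes Qa-1, a class Ib molecule that binds the CD94 and NKG2 receptors of NK cells. The groups did not overlap and the difference was 0.31 ± 0.10 (SE, n = 3 per group), but the limma adjusted p over probe sets was 0.376. The probe set of H2-Q7 and H2-Q9, which encode the Qa-2 antigen, read 7.52, 7.37 and 7.48 in jsd, against 6.67, 7.26 and 7.33 in SCARKO-jsd testes, with a difference of -0.37 and a limma adjusted p of 0.563. SCARKO-jsd 1 was the low array there. Of the 15 probe sets with several symbols, 0 was called by limma, 1 had an unadjusted p under 0.05 and 4 had groups that did not overlap, 26.7%, beside 16.9% over all probe sets.

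The genes that supply peptides to class I did not pass the test. Psmb8, Psmb9 and Psmb10 encode the catalytic subunits that turn the standard proteasome into the immunoproteasome. Psmb8 read 8.36, 8.55 and 8.45 in jsd, against 8.49, 8.64 and 8.86 in SCARKO-jsd testes, and its groups overlapped. Psmb9 read 7.89, 7.98 and 8.03 in jsd, against 7.82, 8.23 and 8.22 in SCARKO-jsd testes, also with overlap. Psmb10 read 9.34, 9.45 and 9.44 in jsd, against 9.47, 9.68 and 9.79 in SCARKO-jsd testes. Its groups did not overlap, although jsd 2 and SCARKO-jsd 1 lay close together. The 3 differences were 0.21, 0.12 and 0.24, with limma adjusted p-values over genes of 0.412, 0.666 and 0.294. Psmb9 differed by 0.051 without SCARKO-jsd 2, by 0.056 without SCARKO-jsd 3 and by 0.26 without SCARKO-jsd 1.

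Tap1 and Tap2, which pair to form the peptide transporter, had overlapping groups. Tap1 read 7.81, 7.63 and 7.73 in jsd, against 7.41, 8.05 and 7.97 in SCARKO-jsd testes, so the SCARKO-jsd arrays held both the lowest and the highest values. Its difference was 0.088 with all arrays and -0.031 without SCARKO-jsd 2, so no direction is given. Tap2 read 7.86, 7.78 and 7.69 in jsd, against 7.71, 8.14 and 8.07 in SCARKO-jsd testes, a difference of 0.20 with a limma adjusted p over genes of 0.475. It was 0.11 without SCARKO-jsd 2 and 0.33 without SCARKO-jsd 1.

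Tapbp encodes tapasin, which bridges the transporter and empty class I. Its brightest probe set read 12.48, 12.40 and 12.23 in jsd, against 12.05, 12.25 and 12.06 in SCARKO-jsd testes. SCARKO-jsd 2 lay just above jsd 3, so the groups overlapped by that pair, and the difference was -0.25 ± 0.11 (SE, n = 3 per group) with a limma adjusted p over genes of 0.262. When arrays were weighted by their quality the difference was -0.32 and the limma adjusted p was 0.0355. That weighting called 1393 of all 10916 genes tested, against 390 without it. A second Tapbp probe set read 10.43, 10.59 and 10.18 in jsd, against 10.04, 9.12 and 9.84 in SCARKO-jsd testes, without overlap. Its difference was -0.73 with all arrays and -0.46 without SCARKO-jsd 2, the array with the widest gap between its 3' and 5' control probe sets, and its limma adjusted p over probe sets was 0.381. The part of RNA quality in the Tapbp values was not tested.

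Separation of all 3 against all 3 arrays was counted for each probe set. Groups did not overlap for 5 of the 64 member probe sets, 4 of them higher (H2-Q10, Psmb10, H2-Q2 and 1 of Ciita) and 1 lower (Tapbp), which is 7.81%, beside 16.9% over all probe sets. Among the 19 tested member genes it was 2, H2-Q10 and Psmb10, beside 24.6% of all genes tested.

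The class II genes varied more from array to array than between the genotypes. H2-Aa, an alpha chain, read 10.32, 10.02 and 10.89 in jsd, against 9.85, 10.35 and 10.53 in SCARKO-jsd testes. H2-Ab1, its beta chain partner, read 9.23, 8.91 and 9.70 in jsd, against 8.67, 9.32 and 9.37 in SCARKO-jsd testes. H2-Eb1, the other main beta chain, read 9.50, 9.22 and 10.29 in jsd, against 9.21, 9.48 and 9.83 in SCARKO-jsd testes. The H2-Ab1 difference was -0.16 with all arrays and -0.26 without SCARKO-jsd 2. In each of these genes jsd 3 was the highest array and SCARKO-jsd 1 the lowest, and the groups overlapped. Cd74, the invariant chain that blocks the groove until the peptide is loaded, followed the same order, at 10.02, 9.74 and 10.54 in jsd, against 9.61, 10.00 and 10.24 in SCARKO-jsd testes. Cd74 differed by -0.15 ± 0.25 (SE, n = 3 per group), with a 95% interval of -0.74 to 0.44 and a limma adjusted p over genes of 0.777. Its sign turned without jsd 3 or without SCARKO-jsd 1, so it has no settled direction.

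Of the 11 class II and Cd74 probe sets above the limit for dim genes, jsd 3 was the highest array in 9 and SCARKO-jsd 1 the lowest in 9. The range among the 3 jsd arrays alone reached 1.07 log2 units in H2-Eb1 and 0.87 in H2-Aa, several times the difference between the group means (-0.16 and -0.17). H2-DMa, a chain of the H2-DM complex that exchanges class II peptides, was less variable among the jsd arrays, at 7.76, 7.76 and 7.88, and was 7.57, 7.89 and 8.12 in SCARKO-jsd testes. H2-Ea, which RefSeq lists as a transcribed pseudogene of the alpha chain that pairs with H2-Eb1, read 7.03 to 7.25 in jsd, against 6.93 to 7.17 in SCARKO-jsd testes. Differences of these 11 probe sets ran from -0.23 to 0.065, with 95% intervals between -0.88 and 0.58. By limma 0 was called and 0 had an unadjusted p under 0.05. H2-Oa and H2-Ob, the chains of the inhibitor of H2-DM, and H2-DMb2 were dim.

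**Figure D3:**
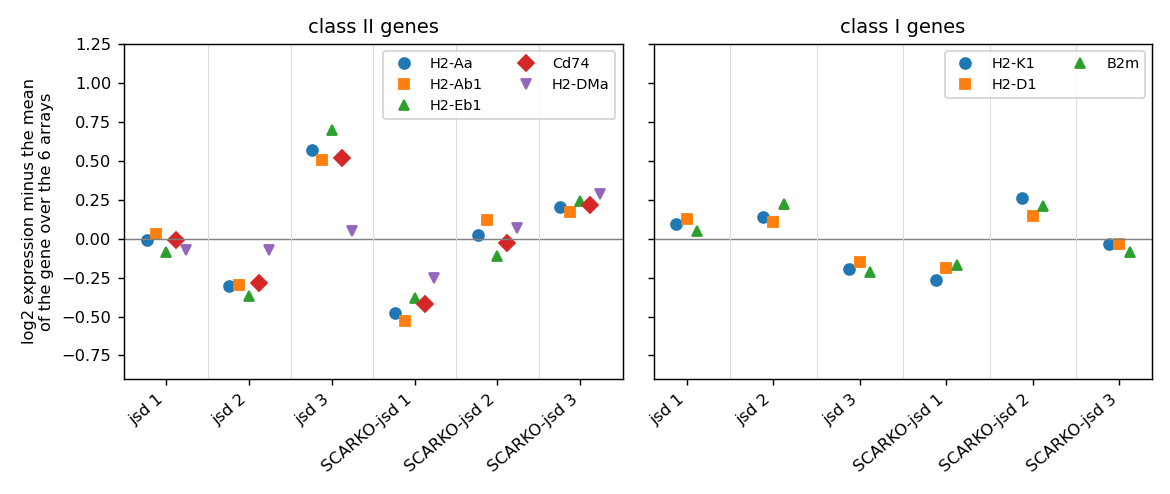
Log2 expression in each array minus the mean of that gene over the 6 arrays, for 5 class II pathway genes (left) and H2-K1, H2-D1 and B2m (right). H2-Aa, H2-Ab1, H2-Eb1 and Cd74 are highest in jsd 3 and lowest in SCARKO-jsd 1. The class I genes lie within a narrower range and are not highest in jsd 3.

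In whole testis RNA, fewer cells of a type and less RNA per cell cannot be told apart. Markers of immune cells are therefore given beside class II. Macrophage markers were 14 genes, of which 13 were tested and 0 called by limma, with 1 unadjusted p under 0.05 (Fcer1g, -0.33, adjusted p = 0.0814). Their mean level was 9.55 to 9.75 in jsd, against 9.34 to 9.71 in SCARKO-jsd testes. Of 5 measured dendritic cell markers, 2 were tested and 0 called. These were Flt3, the receptor of a dendritic cell growth factor, and Zbtb46, a factor of classical dendritic cells. Flt3 differed by 0.50 (limma adjusted p = 0.0958), and by 0.35 without SCARKO-jsd 2 (limma adjusted p = 0.0479). Zbtb46 differed by 0.29 (limma adjusted p = 0.152). Both were higher in every SCARKO-jsd array. In either direction, groups did not overlap for 24.6% of all genes tested and 16.9% of all probe sets. The defining marker Itgax went the other way, lower in every SCARKO-jsd array (-0.35, limma adjusted p over probe sets = 0.273), but was dim, as were Ccr7 (-0.17) and Xcr1 (0.12). All 4 measured B cell markers and 9 of 10 T and NK cell markers were dim. The part of these cells in the class II values was not tested.

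The master activators of both classes were dim. Nlrc5, the coactivator of class I promoters, read 5.22, 4.85 and 5.05 in jsd, against 4.83, 5.05 and 5.04 in SCARKO-jsd testes. Ciita, the coactivator of class II promoters, read 5.31, 5.24 and 5.34 in jsd, against 5.28, 5.36 and 5.36 in SCARKO-jsd testes for its brightest probe set. Neither was tested over genes, and their differences were -0.069 and 0.037. A dimmer Ciita probe set differed by 0.24 without overlap, with a limma adjusted p over probe sets of 0.428. H2-Ke6, which lies in the MHC and encodes a hydroxysteroid dehydrogenase rather than an MHC protein, differed by 0.070.

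Around these genes lie partners that the name rule left out, taken here from lists of the pathway. Of 10 tested peptide loading partners, 0 was called by limma. An unadjusted p under 0.05 in the fit over genes was found for 3 of them, beside 1960 of all 10916 genes tested, and their groups did not overlap, beside 24.6%. Psme1, a subunit of the proteasome activator PA28, read 11.57, 11.75 and 11.65 in jsd, against 11.86, 12.10 and 12.09 in SCARKO-jsd testes, a difference of 0.36 with a limma adjusted p of 0.119. Erap1, which trims peptides in the endoplasmic reticulum, differed by 0.43 (limma adjusted p = 0.178), and Tapbpl, a relative of tapasin, by 0.39 (limma adjusted p = 0.242). Without SCARKO-jsd 2 these were 0.28 and 0.21. The chaperones Calr, Canx and Pdia3 and the standard proteasome subunits Psmb5, Psmb6 and Psmb7 differed by -0.028 to 0.13. The median over the 10 was 0.050, beside 0.043 over all genes tested.

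Among class I-like genes outside the H2 names, Cd1d1 was called. It encodes the molecule that presents lipids to NKT cells. Cd1d1 read 8.12, 7.88 and 7.92 in jsd 1, 2 and 3, against 8.45, 8.50 and 8.39 in SCARKO-jsd 1, 2 and 3. The groups did not overlap, and the difference was 0.47 ± 0.095 (SE, n = 3 per group), with a limma adjusted p over genes of 0.0445. In the fit over every probe set Cd1d1 was not called (limma adjusted p = 0.146). Over 13 alternatives the difference ran from 0.42 to 0.54. In 9 of them the call ended, with limma adjusted p-values from 0.0522 to 0.195, among them leaving out jsd 1 (0.0897), jsd 2 (0.195), jsd 3 (0.132), SCARKO-jsd 1 (0.0785) or SCARKO-jsd 3 (0.131). Of the other 4 tested genes of this list, 0 was called. Procr, the endothelial protein C receptor, differed by 0.90 with a limma adjusted p of 0.190 and overlapping groups. Hfe, an iron regulator that pairs with B2m, differed by 0.18 with a limma adjusted p of 0.335.

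The class II processing partners, the promoter factors and the interferon pathway had no called gene. Of the class II partners, 6 were tested, among them the cathepsins Ctss, Ctsl and Ctsb and the reductase Ifi30, and 0 was called, with 0 unadjusted p under 0.05 and a median of 0.072. Of 11 transcription factors of MHC promoters 0 was called and 0 had an unadjusted p under 0.05, with Irf8 at 0.54 (limma adjusted p = 0.278). Of 10 interferon receptor and signalling genes 0 was called and 1 had an unadjusted p under 0.05, the kinase gene Jak2, at -0.31 (limma adjusted p = 0.124). Of 12 tested interferon-induced genes 0 was called and 2 had an unadjusted p under 0.05, with a median of 0.14. They were Rsad2, an antiviral enzyme gene (0.50, limma adjusted p = 0.167), and Igtp, an immunity-related GTPase gene (0.26, limma adjusted p = 0.249, and 0.17 without SCARKO-jsd 2).

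**Figure D4:**
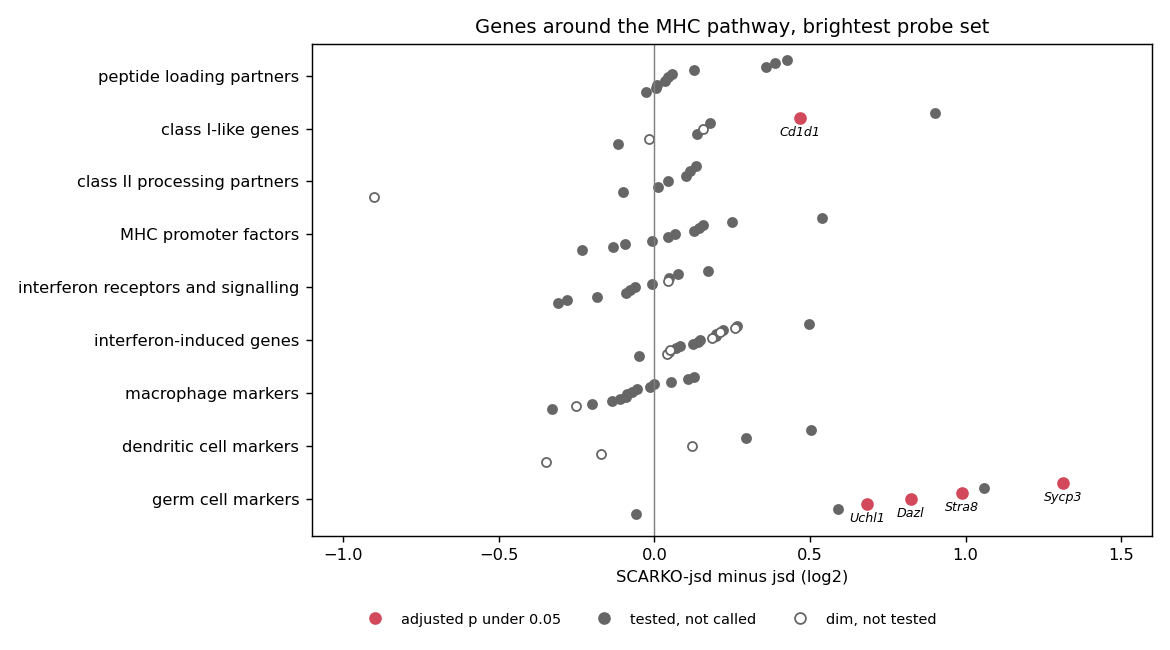
Difference (SCARKO-jsd minus jsd, log2) of each measured gene of the pathway lists and of 3 marker lists, 1 point per gene at its brightest probe set. Red points passed an adjusted p under 0.05 in the limma fit over genes, grey points were tested and not called, and open points were dim. Cd1d1 (0.47) is the red point of the pathway lists, and the other 4 are germ cell markers between 0.68 and 1.31.

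Other genes moved with H2-Q10 between the groups. Of the 7 germ cell markers 4 rose by limma in the fit over genes (Sycp3 by 1.31, Stra8 by 0.99, Dazl by 0.82 and Uchl1 by 0.68). In the fit over every probe set their limma adjusted p-values were 0.0339, 0.157, 0.154 and 0.0840, so only Sycp3 was called there. Over all genes tested, 3.57% were called in either direction. Ddx4 (1.06, limma adjusted p = 0.0555) and Gfra1 (0.59, limma adjusted p = 0.134) were not called. Without SCARKO-jsd 2, Gfra1 was 0.37 with a limma adjusted p of 0.0347. Zbtb16 differed by -0.060 with overlapping groups (limma adjusted p = 0.943), and by 0.25 without SCARKO-jsd 2. Mean marker level was 8.12 to 8.31 in jsd, against 8.83 to 9.13 in SCARKO-jsd testes, without overlap. Of 11 markers of liver and plasma proteins, 9 were dim and 2 tested, and 1 rose: Ahsg, the gene of fetuin A, read 5.79, 5.42 and 5.86 in jsd, against 7.70, 8.42 and 8.02 in SCARKO-jsd testes. Its difference was 2.36 ± 0.21 (SE, n = 3 per group), with limma adjusted p-values of 0.00157 over genes and 0.0206 over probe sets. Like H2-Q10 it was below the dim limit on every jsd array and entered the fit over genes through the SCARKO-jsd arrays, so the size is uncertain. The defining liver genes Alb, Apoa1, Fga, Fgb and Serpina1b were dim in both groups, and Ttr, the other tested marker, differed by -0.21 (limma adjusted p = 0.328). Of 10 Sertoli cell markers, Wt1 fell by 0.48 (limma adjusted p = 0.0394 over genes and 0.135 over probe sets). Amh and Inha each differed by 0.33 in the other direction and were not called (limma adjusted p = 0.134 and 0.0792). Their groups did not overlap, beside 24.6% of all genes tested. Without SCARKO-jsd 2, Inha was 0.35 (limma adjusted p = 0.0493) and Amh was 0.31 (limma adjusted p = 0.130). Of 5 tested endothelial markers, Kdr fell by 0.79 (limma adjusted p = 0.0430 over genes and 0.166 over probe sets). Vwf was at 0.53 (limma adjusted p = 0.142) and the median of the list was 0.21. Of the remaining marker lists, 0 of 5 Leydig and 0 of 5 peritubular myoid markers were called, and the 4 measured epididymis markers were dim. The part of germ cells in the H2-Q10 result was not tested.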

How the data were processed

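Per the submitters' processing notes, the authors used RMA and affy, and the deposited table holds log2 expression of each probe set (version not given in the sources used here). The RMA method corrects background, brings arrays to a shared distribution and summarises probes, so a shift of most transcripts would not be seen. The labels number the arrays but do not say which animal each is from. The p-values therefore measure the spread between these samples, which may be technical. Same-numbered arrays were not taken as pairs, since the correlations of their deviations were -0.21, 0.23 and 0.24, and 0 arrays held identical values.

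Of 45101 probe sets, 64 were controls and were left out. Symbols came from the platform annotation in GEO, which may be outdated. All 33 member gene IDs were found in RefSeq and 0 symbols differed. Limma 3.58.1 (lmFit and eBayes) in R 4.3.3 tested genotype in 2 fits, two-sided with Benjamini-Hochberg adjustment at 0.05. One took the brightest probe set of each gene and left out the lowest 40%, the other took every probe set. Differences, SEs and 95% intervals come from the fit over every probe set. The fits were tested on simulated data with independent noise and planted differences larger than most of those described here. That test does not cover small differences or an array that stands apart.

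The members, lists and motifs were chosen with earlier results of these data known. Given in full are the called members, those whose brightest probe set does not overlap between the groups, and the 10 genes the rule names. The other H2 genes shown in full were chosen as examples of their class. Of each list, called genes and up to 3 with the smallest p are named. Where more are named, they were chosen as examples after their values were seen. Within each list, genes without a probe set of their own were left out. Alternatives were a replicate block, arrayWeights, trend and robust variances, other filters, median centring, quantile normalization again, probe set means and each array left out. Promoters are RefSeq windows, GRCm38.p6, aligned with Biopython 1.88 with free end gaps. Figures used matplotlib 3.10.9. One gene is not reported here.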

Additional observations from a re-analysis of the deposited data

How the results depend on the processing

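Over probe sets, H2-Q10 kept its direction in 12 of 12 alternatives (2.54 to 3.13) and lost its call in 5, with adjusted p-values from 0.00364 to 0.163. Over genes it was called in the 13 alternatives that tested it (adjusted p up to 0.0115), which is no independent support, since it passed the filter through its high group. It was not tested there with the lowest 60% of genes left out, so 0 members were called. With arrayWeights 2 of the 19 tested members were called, H2-Q10 and Tapbp (-0.32), beside 1393 of all 10916 genes tested. Over probe sets, 0 members were called with a replicate block, where the adjusted p of H2-Q10 was 0.0624, and 0 to 1 with each array left out. The 390 called genes became 1393 with arrayWeights and 78 (without jsd 1) to 768 (without SCARKO-jsd 2) with each array left out. Leaving out jsd 2, jsd 3 or SCARKO-jsd 3 gave 119, 239 and 141. The 126 called probe sets became 64 with median centring, 215 with trend and robust, 1269 with arrayWeights, 0 with the replicate block and 0 to 627 with each array left out. The same-numbered arrays share only a number, so the block says nothing on pairing. B2m turned to 0.025 with the mean of its probe sets, 0.009 with median centring, 0.067 without jsd 2 and 0.043 without SCARKO-jsd 1, and with each array left out it ran from -0.15 to 0.067. Tap1 turned to -0.031 without SCARKO-jsd 2, the lowest of a range that reached 0.29. Nlrc5 turned to 0.021 without jsd 1 and 0.005 without SCARKO-jsd 1, in a range of -0.16 to 0.021 with each array left out. Cd74 turned to 0.12 with arrayWeights, 0.070 without jsd 3 and 0.020 without SCARKO-jsd 1, and ran from -0.33 to 0.070 with each array left out. Psme1 was called with arrayWeights (0.35, limma adjusted p = 0.0380). Median centring moved the median of all genes by 0.044. Where fewer arrays or genes were fitted, that is the alternative's construction, and otherwise the cause was not tested. Signal near background limits H2-Q10 in jsd testes, H2-Q2, Nlrc5 and Ciita.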
